A study of Rattus norvegicus with 18 samples.

Results

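The step from 1 h to 3 h after transection of the rat sciatic nerve was examined as a comparison of the 3 arrays of 3 h with the 3 arrays of 1 h. These 6 arrays, 1h_SN_1 to 1h_SN_3 and 3h_SN_1 to 3h_SN_3, belong to a series of 18 that also has triplicates labelled 0 h, 0.5 h, 6 h and 9 h. All animals were adult male Sprague-Dawley rats, for which the labels name no transgene and no drug but the anaesthetics, and in each a piece of the left sciatic nerve had been cut out just above its division into the tibial and common peroneal nerves. The RNA was that of the proximal segment, the stump still joined to the spinal cord, at 1 h or at 3 h after that operation. Whether an array holds RNA of 1 rat or of a pool is not given in the sources used here, so that the P-values measure the spread between arrays, which may be partly technical. Each array carried 41012 different probes that were not controls.

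A cut through a peripheral nerve is followed by waves of transcription in the Schwann cells that wrap the axons, in fibroblasts, in vessel walls and in the leukocytes that enter. The first wave consists of immediate early genes, which are switched on from existing transcription factors without new protein synthesis and are usually short lived, because many of them also encode or induce the proteins that end the signal. Genes that need newly made factors follow, among them cytokines, receptors, proteases and growth factors. The axon's cell bodies lie outside the sampled tissue, so that the RNA of a nerve segment comes mainly from its non-neuronal cells.

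Between 1 h and 3 h 2995 of 27184 gene names were called, 1652 higher and 1346 lower at 3 h, and the few genes whose probes moved in opposite directions were counted once in each direction. Levels are log2 values of Agilent's processed signal minus the 75th percentile of the array, changes are 3 h minus 1 h on this log2 scale, and a call needed limma's moderated test over all 18 arrays to give P under 0.01 before and under 0.05 after Benjamini-Hochberg adjustment. The share called was 11.0% of the gene names, 6.08% higher and 4.95% lower. The split depended on the scaling, for when arrays were set to a common median 1572 genes were higher and 570 lower. With 1 probe per gene, 1584 of the 13505 genes that carry a RefSeq symbol were called, 866 higher and 718 lower, which was 11.7%, 6.41% and 5.32% of them. Of these, 259 were at least 2-fold higher (1.92%) and 87 at least 2-fold lower (0.644%). The remaining values refer to these 13505 genes. Their median change was -0.041.

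The arrays differed in ways that touch these counts. The share of spots well above background was 68.8% to 71.4% at 1 h and 70.3%, 71.1% and 82.3% at 3 h, the highest on 3h_SN_3. The correlation of log2 signals was 0.986 to 0.991 between arrays of 1 h and 0.979 to 0.988 between arrays of 3 h. Both time-points were scanned on the same day, but the arrays of 1 h lay on 1 slide and those of 3 h on other slides, so that slide and time cannot be told apart within these 6 arrays. Of all 27184 gene names 1648 were called without 3h_SN_2 and 1688 without 3h_SN_3, against 2995 with both. After normexp background correction, which adds an offset to the signals, 28 of 134 named and called genes had changes smaller by over 1.5 times, and none had changes larger by as much. All 14 Schwann cell markers measured lay well above background on all 6 arrays. Their summed linear signal, in units of each array's 75th percentile, was 1070, 964 and 1160 at 1 h, then 1030, 936 and 778 at 3 h. The groups overlapped, and 3h_SN_3 was the lowest.

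**Figure D1:**
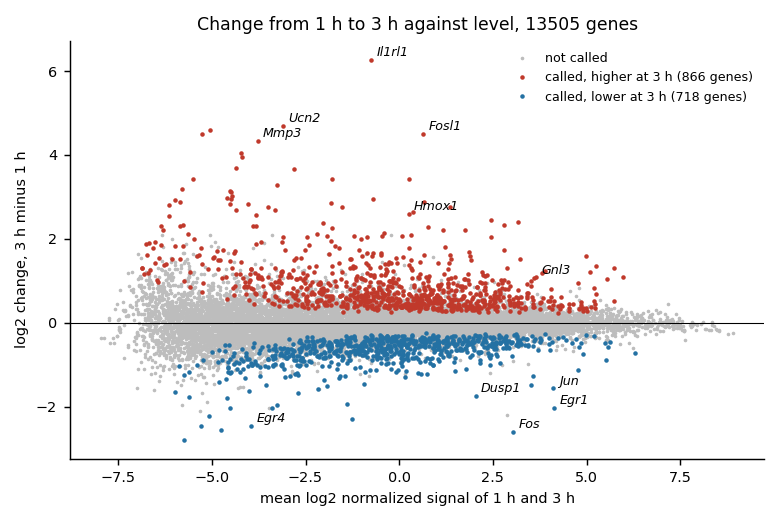
Change from 1 h to 3 h (vertical, log2) against the mean log2 normalized signal of both time-points (horizontal) for 13505 genes with 1 probe each. Red points are the 866 genes called higher at 3 h and blue points the 718 called lower. The largest rises lie further from 0 than the largest falls, with Il1rl1 at 6.27 and Fos at -2.60.

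Fos, Egr1, Jun and other immediate early transcription factors were lower at 3 h than at 1 h. Of the 29 on the list, 11 fell, 2 rose and the median change was -0.47, against 5.32% lower and 6.41% higher among all genes tested. In each of the 11 genes that fell, all 3 arrays of 3 h lay below all 3 arrays of 1 h. Among all genes, called or not, 16.6% showed this pattern. A call largely fixes the pattern, so that it is no further evidence of a fall. The 2 that rose were Fosl1 and Crem. Under the alternatives tried, the number that fell was lowest, at 7, when the fit held only the 6 arrays or a 2-fold minimum was set.

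Fos, which encodes a partner of Jun in the AP-1 factor, had log2 signals of 4.48, 3.96 and 4.57 at 1 h, then 1.52, 1.86 and 1.83 at 3 h. It was 6.06-fold lower at 3 h, a change of -2.60 (standard error 0.33, adjusted P 0.000345). Egr1, a zinc finger factor of the same early wave, lay at 5.21, 5.35 and 4.85 at 1 h, then 2.69, 3.51 and 3.15 at 3 h. Its change was -2.02 (standard error 0.28, adjusted P 0.000701), or 4.06-fold. In both genes the arrays of a time-point lay close together and the groups were far apart. At 0 h, on arrays scanned on another day, the mean was -1.10 for Fos and 1.25 for Egr1.

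Jun, the DNA-binding partner of Fos, lay at 5.16, 4.88 and 4.64 at 1 h, then 3.23, 3.42 and 3.35 at 3 h and fell by 1.56 (standard error 0.16, adjusted P 8.56e-05). Its mean was 3.34 ± 0.093 (SD, n = 3) at 3 h and 3.01 ± 0.31 at 0 h. Junb fell by 1.15 (standard error 0.27, adjusted P 0.0162), from signals of 2.19, 1.86 and 2.13 to 0.36, 1.01 and 1.35, with the arrays of 3 h more spread than those of 1 h. That call was lost without 1h_SN_1 or 1h_SN_3 (adjusted P 0.0532 and 0.0521) or 3h_SN_1 (0.0615). Atf3, a factor of the stress response that is a familiar marker of injured neurons and Schwann cells, went from 5.32 ± 0.061 to 4.20 ± 0.19, a change of -1.12 (standard error 0.12, adjusted P 0.000130). Btg2, an antiproliferative gene, fell by 1.49 (standard error 0.25, adjusted P 0.00240). Smaller falls were called for Klf2 at -1.0, Nr4a1 at -0.72, Jund at -0.59 and Klf6 at -0.47. Jund has 3 probes, whose changes ran from -1.15 to -0.31 with 2 called, and Klf6 has 2 probes, of which the second moved by -0.13 and was not called. Egr4, a dim member, fell from -2.56, -2.70 and -2.93 to -5.24, -5.01 and -5.31, a change of -2.46 (standard error 0.71, adjusted P 0.0414), and its call was lost when any array of 1 h or 3 h was left out. Its change was -1.10 after normexp.

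Fosl1, which encodes Fra-1, another AP-1 subunit, moved the other way. Its log2 signals were -1.99, -1.47 and -1.36 at 1 h, then 2.45, 3.20 and 3.03 at 3 h, and no array of 3 h came near one of 1 h. The rise was 22.7-fold, a change of 4.50 (standard error 0.26, adjusted P 1.07e-06). Its probe lies on chromosome 1, 208098827 to 208098886 of the rn4 build. The mean had been -3.45 ± 0.43 at 0 h and -3.32 ± 0.26 at 0.5 h, and was 3.34 ± 0.27 at 6 h and 3.10 ± 0.32 at 9 h, all measured on 3 arrays each. Crem, a CREB relative that includes an inducible repressor, rose by 1.43 (standard error 0.19, adjusted P 0.000424), with signals of 0.45, 0.79 and 0.64 at 1 h, then 1.79, 2.19 and 2.17 at 3 h.

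Egr1 and Dusp1 are shown with their promoters because the first is the textbook target of serum response factor and the second of CREB. The sequences are RefSeq's on GRCr8, end at the base before the annotated start, and have the matched motif in capitals.
Egr1, CArG box (chr18:26736958-26737077, plus strand): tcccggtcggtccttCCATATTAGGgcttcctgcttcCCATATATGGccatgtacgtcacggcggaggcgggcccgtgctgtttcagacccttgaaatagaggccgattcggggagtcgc
Dusp1, CRE (chr10:17184713-17184852, plus strand): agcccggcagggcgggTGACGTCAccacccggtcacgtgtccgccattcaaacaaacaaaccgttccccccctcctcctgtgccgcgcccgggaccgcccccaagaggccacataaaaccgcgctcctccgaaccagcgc
A CArG box, the site of serum response factor, was found on either strand in 4 of the 18 promoters available for the list of immediate early factors (22.2%), against 1.24% of the promoters of genes tested. The CRE, TGACGTCA, was also found in 4 of them (22.2%), against 2.88%. These are matches of letters in a window of 250 bases before to 50 after the start, not measured sites.

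**Figure D2:**
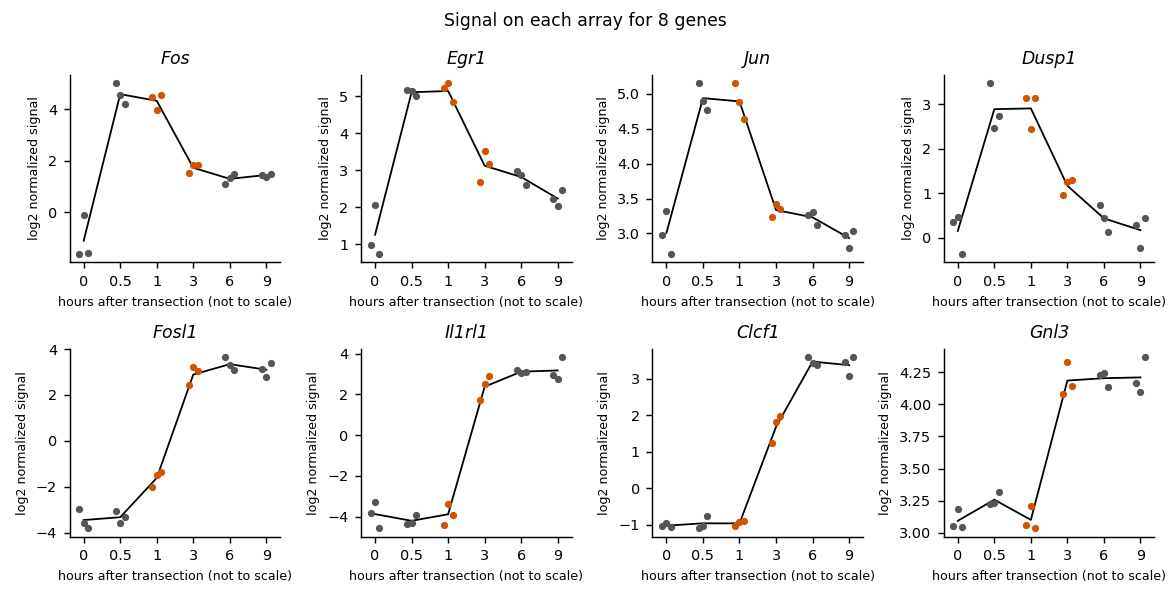
Log2 normalized signal (vertical) on each of the 18 arrays for 8 genes, by hours after transection (horizontal, evenly spaced). Points are arrays, orange at 1 h and 3 h, and the line joins the means. Fos, Egr1, Jun and Dusp1 lie lower at 3 h than at 1 h on every array, and Fosl1, Il1rl1, Clcf1 and Gnl3 higher.

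Genes that switch off kinase signals and cytokine messages moved in both directions. Of 14 MAP kinase phosphatases and Ras feedback genes 3 fell (21.4%) and 2 rose (14.3%), against 5.32% and 6.41% of all genes, with a median of -0.23, and with the 6 arrays alone in the fit 2 fell and none rose. The rises numbered 1 when any array of 1 h or 3 h but 3h_SN_1 was left out. Dusp1, which inactivates p38 and JNK, lay at 3.13, 2.44 and 3.14 at 1 h, then 0.96, 1.25 and 1.29 at 3 h, and its groups did not overlap. It fell by 1.74 (standard error 0.30, adjusted P 0.00235), 3.33-fold. Dusp8 fell by 0.84 (standard error 0.21, adjusted P 0.0209), a call lost without 1h_SN_1 or 1h_SN_3 or 3h_SN_3. Dusp5, a nuclear phosphatase of ERK, lay at 0.98, 1.15 and 1.20 at 1 h, then 1.47, 2.05 and 2.16 at 3 h, a change of 0.78 (standard error 0.23, adjusted P 0.0447), and kept its call without 3h_SN_1 alone among the arrays of 1 h and 3 h left out. Spred1, an inhibitor of Ras signalling, rose by 0.74 (standard error 0.15, adjusted P 0.00583). Among 19 genes for mRNA decay and inhibition of cytokine signals 3 fell (15.8%) and 2 rose, 26.3% called in all, or 0 and 1 with the 6 arrays alone. Zfp36, whose product tristetraprolin destroys cytokine mRNAs, fell from -0.99, -1.23 and -1.29 to -2.66, -2.16 and -3.20, a change of -1.51 (standard error 0.26, adjusted P 0.00281). Nfkbiz, an inducible nuclear IκB protein, fell by 1.18 (standard error 0.25, adjusted P 0.00838), while Tnip2 rose by 0.91 and Trib3 by 1.29. Of 10 NF-kB subunits and kinases 2 rose, 4 without 1h_SN_2 or after normexp and none with the 6 arrays alone. Nfkb1 rose by 0.59 and Bcl3, a nuclear partner of NF-kB subunits, by 1.53 (standard error 0.23, adjusted P 0.00112). The Nfkb1 call was lost without 1h_SN_3 (adjusted P 0.0511) or 3h_SN_3 (0.0589).

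The step was set beside that from 0 h to 0.5 h, which shares no array with it and was measured on another scan day. At 0.5 h 683 genes were called against 0 h (5.06% of those tested), 395 of them higher (2.92%). Of these 395 genes, 41 fell between 1 h and 3 h (10.4%) and 33 rose (8.35%), where 5.32% and 6.41% of all genes did. Which of the counts was larger depended on the setting, with 20 that fell and 27 that rose after median scaling, 11 and 23 at a 2-fold minimum, 30 and 44 without 3h_SN_1 and 26 and 33 without 3h_SN_3. Of the 33 that rose, 7 were well above background on no array of 0 h or 0.5 h, as were 12 of the 395 and 0 of the 41. Without such genes 26 of 383 rose and 41 of 383 fell. The median change of the 395 genes in the later step was -0.19. The 41 were 5.71% of all genes that fell between 1 h and 3 h, so that most genes lower at 3 h had not been called higher at 0.5 h. Of the immediate early list 19 were higher at 0.5 h, and 9 of these fell between 1 h and 3 h. The steps differed by a test of their difference in 24 of the 29, where 9.75% of the genes with a RefSeq symbol and 10.7% of all gene names did. Egr4 and Jund also fell, with changes of 2.35 and 0.33 from 0 h to 0.5 h that were not called (adjusted P 0.0692 and 0.134).

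Some genes were called higher in both steps. Of 197 genes at least 2-fold higher at 0.5 h, 25 were called higher again between 1 h and 3 h (12.7%) and 17 lower (8.63%), against 6.41% and 5.32% of all genes. Of the 185 among them that were well above background on some array of 0 h or 0.5 h, 18 were called higher again and 17 lower. For 7 of the 25, Csf3, Areg, Olr1, Prss22, Il1rl2, Pth and Cnga4, no array of 0 h or 0.5 h was well above background, so that no rise was measured in the first step. For 5 more, Reg3g, Clec4e, Mmp8, Clec4d and Csta, no array of 0 h and only 1 or 2 arrays of 0.5 h were well above background, so that the size of their first change was not measured. Il6, the cytokine interleukin 6, was well above background on no array of 0 h and on every array of 0.5 h. It was at least 13.6-fold higher at 0.5 h, taken against the lowest signal well above background on each array of 0 h, and rose by 1.66 between 1 h and 3 h (standard error 0.26, adjusted P 0.00126). For S100a8 and S100a9, which encode the calprotectin subunits of neutrophils, the changes were 3.12 and 3.13 in the first step and 2.21 and 2.21 in the later one. For Cxcl3, a chemokine for neutrophils, they were 2.18 and 2.94. The metallothionein Mt2A, a metal-binding protein, changed by 1.35 and 1.60. These examples were picked from the 25 after their values were seen.

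**Figure D3:**
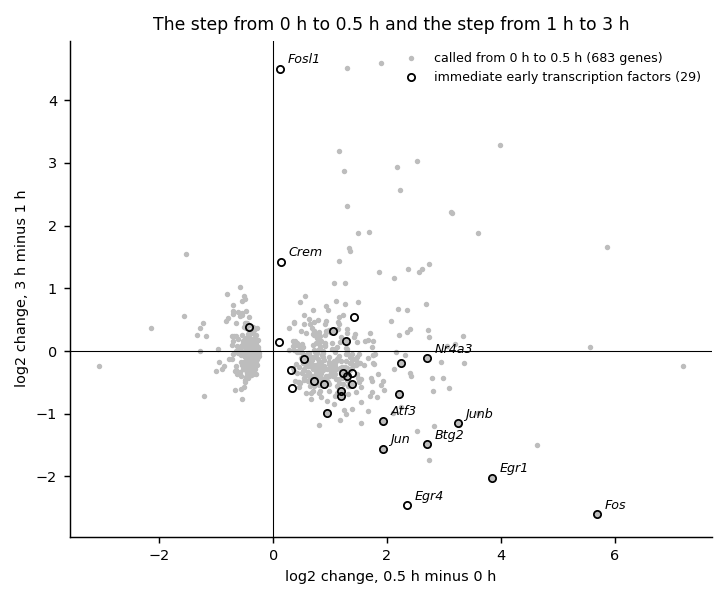
Change from 1 h to 3 h (vertical, log2) against change from 0 h to 0.5 h (horizontal, log2); the steps share no array. Grey points are the 683 genes called from 0 h to 0.5 h and circles the 29 immediate early transcription factors. Fos, Egr1, Jun, Junb, Btg2 and Atf3 lie at the lower right, higher at 0.5 h and lower at 3 h, and Fosl1 and Crem at the top near 0 on the horizontal axis.

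Cytokine receptors were among the largest rises of the step. Of 23 receptors measured 10 rose (43.5%, against 6.41% of all genes) and 1 fell, and no member had been called at 0.5 h. The median was 0.68, or 0.42 without 3h_SN_3, 0.43 without 1h_SN_1 and 0.45 after normexp. With the 6 arrays alone in the fit 6 were called higher. Il1rl1, which encodes ST2, the receptor of interleukin 33 that is made in a membrane and a soluble form, had log2 signals of -4.39, -3.37 and -3.91 at 1 h, then 1.70, 2.51 and 2.93 at 3 h. All arrays of 3 h lay far above those of 1 h, and the change of 6.27 (standard error 0.38, adjusted P 1.10e-06), 77.2-fold, was the largest rise among the genes well above background on all 6 arrays. This probe lies on chromosome 9, 39617225 to 39617284 of rn4. A second, dimmer probe of the gene, on chromosome 9 from 39619275 to 39620742, went from -5.09 ± 0.93 to -4.28 ± 0.73, a change of 0.80 that was not called (adjusted P 0.490), so that the 2 probes disagree by far more than their errors.

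Il1r2, a decoy receptor that binds interleukin 1 without signalling, lay at -1.91, -1.31 and -1.12 at 1 h, then 1.46, 1.81 and 2.63 at 3 h. It rose by 3.42 (standard error 0.26, adjusted P 1.23e-05), 10.7-fold. Il1r1, the signalling receptor, was well above background on 2 arrays of 1 h and all 3 of 3 h, and rose by 2.31 (standard error 0.23, adjusted P 7.85e-05), or by 1.25 after normexp. Il1rap, its co-receptor, rose by 0.74. Tnfrsf12a, the receptor of TWEAK, had signals of 1.55, 1.95 and 1.35 at 1 h, then 3.61, 4.16 and 4.10 at 3 h and rose by 2.34 (standard error 0.24, adjusted P 8.47e-05). Osmr, the receptor subunit for oncostatin M, rose by 2.06. Il6r, the binding subunit for interleukin 6, lay at 0.41, 0.12 and 0.31 at 1 h, then 1.33, 1.20 and 1.30 at 3 h and rose by 1.0 (standard error 0.17, adjusted P 0.00263), while the shared signalling subunit Il6st had a change of 0.31 that was not called. In a list of 16 genes of interleukin 1 and interleukin 6 receptor signalling taken from the study, and thus no independent evidence of a direction, 6 rose (37.5%, against 6.41% of all genes, or 2 with the 6 arrays alone) and none fell, Jak2 by 0.91 and Stat3 by 0.78 among them.

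Of 25 cytokine ligands measured 9 rose (36.0%, against 6.41% of all genes) and 1, Tnfsf9, fell. The median was 0.34, or 0.64 without 3h_SN_1 and 0.17 without 1h_SN_1 or 3h_SN_3. It was 0.18 after normexp and 0.12 for probes well above background on all 18 arrays. With the 6 arrays alone 5 were called higher and none lower. Clcf1, a ligand of the interleukin 6 family that acts on cells with the CNTF receptor, lay at -1.04, -0.93 and -0.90 at 1 h, then 1.25, 1.82 and 1.98 at 3 h, with very little spread at 1 h. It rose by 2.64 (standard error 0.17, adjusted P 1.60e-06), 6.25-fold. Its second probe was well above background on no array of 1 h and all of 3 h. Il1rn, the antagonist that occupies the interleukin 1 receptor, rose from -1.10, -0.34 and -0.94 to 1.39, 1.93 and 2.95, a change of 2.89 (standard error 0.32, adjusted P 0.000127). Csf3 and Csf2, the growth factors for granulocytes and for granulocytes and macrophages, were well above background on no array of 1 h and on every array of 3 h. Such a gene has only a bound at 1 h, and its fold was taken against the lowest signal well above background on each array, or its own if higher. Csf3 was at least 5.68-fold higher (limma adjusted P 6.57e-06) and Csf2 at least 5.96-fold (0.000494). Il1b, with a change of 0.75, and Lif, with -0.0033, were not called, and Tnf was well above background on no array of 1 h and 1 of 3 h.

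Chemokines rose in 7 of 29 cases (24.1%, against 6.41% of all genes) and fell in none, with a median of 0.38. Without 3h_SN_2 or 3h_SN_3 the count was 4, and with the 6 arrays alone in the fit it was 1. Cxcl3, which attracts neutrophils through Cxcr2, lay at -2.45, -2.11 and -1.98 at 1 h, then -0.014, 0.79 and 1.51 at 3 h, with the 3 h arrays widely spread but all above those of 1 h. It rose by 2.94 (standard error 0.32, adjusted P 0.000120). Ccl17, a ligand of Ccr4, rose by 1.64 (standard error 0.29, adjusted P 0.00277). Ccl2, the main chemokine for monocytes, went from 5.08 to 6.39 (change 1.31, adjusted P 0.00318). Cxcl11, a chemokine for T cells that interferon induces, changed by 2.39 (standard error 0.68, adjusted P 0.0382), a call that was lost without 1h_SN_1 or 1h_SN_3 or 3h_SN_2 or 3h_SN_3. Cxcl6 was well above background on 0 arrays of 1 h and 2 of 3 h, with signals of -7.64, -7.42 and -7.33 at 1 h, then -6.68, -4.89 and -5.45 at 3 h, and was called (adjusted P 0.0144) but not after normexp background correction (0.131) or without 3h_SN_2 or 3h_SN_3. Cxcl1 and Cxcl2, close relatives of Cxcl3, had changes of 0.067 and -0.24 and were not called. Binding of related transcripts to one another's probes was not tested.

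The Cxcl6 promoter is shown for its match to the NF-kB motif, in capitals.
Cxcl6, NF-kB site (chr14:17596418-17596517, minus strand): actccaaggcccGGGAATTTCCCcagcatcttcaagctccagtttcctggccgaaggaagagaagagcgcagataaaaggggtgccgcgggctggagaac
That motif was found in 8.65% of the promoters of genes at least 2-fold higher at 3 h, in 11.9% of those at least 2-fold lower and in 4.88% of those of all genes tested. Over all genes called, of any fold, the shares were 5.52% for those higher and 7.16% for those lower.

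Of 14 neutrophil markers measured 4 rose (28.6%, against 6.41% of all genes) and none fell, with a median of 0.82, and 2 of the others had changes below 0. With the 6 arrays alone in the fit 1 was called, with the arrays of their scan day 6. Of the 14, 10 were well above background on all 6 arrays and each on at least 1. The summed linear signal of the 14, in units of each array's 75th percentile, was 5.34, 7.10 and 7.02 at 1 h and 11.0, 18.7 and 26.1 at 3 h. The groups did not overlap, and 3h_SN_3 was the highest. Such a sum follows the brightest genes, which at 3 h were S100a9, S100a8, Lcn2 and Np4, and is no evidence from all 14. S100a8 lay at -0.46, 0.40 and 0.28 at 1 h, then 1.48, 2.43 and 2.94 at 3 h and rose by 2.21 (standard error 0.37, adjusted P 0.00202). Cxcr2, the receptor of Cxcl3, was well above background on 1 array of 1 h and on 3 of 3 h. Its change of 2.69 (standard error 0.53, adjusted P 0.00548) was taken largely against signals at background, and it was 1.25 after normexp. Mmp8, the neutrophil collagenase, rose by 3.29 (standard error 0.47, adjusted P 0.000802), or by 1.98 after normexp, and was well above background on 2 arrays of 1 h. Mpo, myeloperoxidase, changed by -0.67 and was not called. In RNA of whole tissue more cells of a type and more RNA per cell cannot be told apart, and the part of these cells in the rises of chemokines, Trem1 and Il1r2 was not tested. Of 17 macrophage and monocyte markers, Lyz2, Mrc1 and Aif1 rose by 0.96, 0.60 and 0.42, and the arrays' summed signals, 247 to 272 at 1 h and 267 to 313 at 3 h, overlapped. The count was 5 without 3h_SN_1, 1 without 1h_SN_1 or 1h_SN_3 or 3h_SN_3 and 0 with the 6 arrays alone. The calls of Mrc1 and Aif1 were lost without 1h_SN_1 or 1h_SN_3 or 3h_SN_3, that of Aif1 also without 3h_SN_2, and the change of Mrc1 without 3h_SN_3 was 0.40.

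Endothelial adhesion genes went both ways, with 3 of 19 higher and 3 lower (15.8% each, against 6.41% and 5.32% of all genes), or 2 and 0 with the 6 arrays alone. Sele, which encodes E-selectin, the adhesion molecule that activated endothelium shows to leukocytes, lay at -1.05, 0.050 and -0.27 at 1 h, then -2.77, -2.07 and -2.26 at 3 h. It fell by 1.94 (standard error 0.41, adjusted P 0.00891), 3.84-fold. F11r and Cldn5, proteins of tight junctions, changed by -0.79 and -0.45. Cd44, a receptor for hyaluronan, rose by 1.14 (standard error 0.16, adjusted P 0.000596), and Itgb2, the beta chain of leukocyte integrins, by 1.1 (standard error 0.28, adjusted P 0.0259). The Itgb2 call was lost without 1h_SN_1 or 1h_SN_3 or 3h_SN_2 or 3h_SN_3. Cldn14, another claudin, rose by 1.14 (standard error 0.17, adjusted P 0.00118). Icam1, Vcam1 and Selp were not called, with changes of 0.43, -0.58 and 0.47. Angiogenic genes were lower in 5 of 16 cases (31.2%) and higher in 1 (median -0.26). Edn1, the vasoconstrictor endothelin, lay at 0.34, 0.30 and 0.27 at 1 h, then -0.80, -0.43 and -0.70 at 3 h and fell by 0.95 (standard error 0.17, adjusted P 0.00379). Vegfc, a growth factor for lymphatic vessels, fell by 0.81 (standard error 0.15, adjusted P 0.00334), Aplnr by 1.0 and the Notch ligand Dll4 by 0.86, and both of the latter lost their calls without 1h_SN_3 or 3h_SN_1 or 3h_SN_2, Dll4 also without 3h_SN_3. The change of Dll4 was -0.46 after normexp and -0.56 without 1h_SN_3. Vegfa had a change of -0.31 and was not called. Flt1, called higher at 0.68, has a second probe at -0.35, which was not called, and lost its call without 1h_SN_1 or 1h_SN_2 or 3h_SN_2 or 3h_SN_3. Without 1h_SN_3 or 3h_SN_2 the count of falls was 2, without 3h_SN_1 it was 3 and with the 6 arrays alone 1.

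Growth factors and their receptors went both ways. Of 26 genes of the EGF family and of neurotrophic factors and their receptors 5 rose (19.2%, against 6.41% of all genes) and 3 fell (11.5%, against 5.32%). The falls numbered 1 without 1h_SN_3, without 3h_SN_2 or after median scaling, and 0 without 1h_SN_1, without 3h_SN_3 or with the 6 arrays alone. After normexp 3 rose. Areg and Btc, ligands of the EGF receptor, were well above background on no array of 1 h and all of 3 h. Areg was at least 2.17-fold higher (adjusted P 6.26e-05) and Btc at least 1.26-fold (0.00370), and Btc was not called after normexp. Fgf2 rose by 1.53 (standard error 0.17, adjusted P 0.000128), though a dimmer second probe changed by 0.68 and was not called. The receptor genes Erbb2 and Erbb3, through which neuregulin acts on Schwann cells, changed by -0.97 and -0.65, while Gdnf, at -0.51, was not called. Erbb3 lost its call without 1h_SN_1 or 1h_SN_3, without 3h_SN_2 or 3h_SN_3, after median scaling and after quantile normalization, and changed by -0.42 after normexp.

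Secreted proteases, their inhibitors and clotting genes rose in 11 of 28 cases (39.3%, against 6.41% of all genes) and fell in none (median 0.32). The count was 7 without 1h_SN_1, 6 without 3h_SN_2, 7 without 3h_SN_3 and 3 with the 6 arrays alone in the fit. Mmp3, stromelysin 1, was well above background on 1 array of 1 h and all of 3 h, with signals of -6.85, -6.13 and -4.86 at 1 h, then -2.19, -1.50 and -1.15 at 3 h. Its change of 4.33 (standard error 0.55, adjusted P 0.000356) was taken largely against signals at background, and it was 2.25 after normexp. Plaur, the receptor that holds urokinase on the cell surface, lay at -2.58, -1.61 and -1.49 at 1 h, then -0.28, 0.22 and 0.51 at 3 h and rose by 2.04 (standard error 0.28, adjusted P 0.000553). Serpinb2, an inhibitor of plasminogen activators, was at least 5.31-fold higher (adjusted P 0.00227). Timp1, an inhibitor of matrix metalloproteinases, rose by 1.04. Of 15 genes of hyaluronan and provisional matrix 3 rose and 2 fell, which was 33.3% called, against 11.7% of all genes, and 1 rose without 1h_SN_1, without 3h_SN_2 and with the 6 arrays alone. Ptx3, a long pentraxin that binds microbes and hyaluronan-rich matrix, lay at -4.05, -3.17 and -3.28 at 1 h, then -1.28, 0.49 and 0.59 at 3 h, with wide spread at 3 h but no overlap, and rose by 3.43 (standard error 0.50, adjusted P 0.000839). Ccn1, a matricellular protein of the early wave, fell by 1.27 (standard error 0.24, adjusted P 0.00435), and Has2, a hyaluronan synthase, by 0.84 (standard error 0.24, adjusted P 0.0372). The Has2 call was lost when any array but 1h_SN_1 was left out.

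The promoters of Mmp3 and Plaur are shown because both carry a match to the AP-1 site, TGANTCA, in capitals, just before the start.
Mmp3, AP-1 site (chr8:12925191-12925280, plus strand): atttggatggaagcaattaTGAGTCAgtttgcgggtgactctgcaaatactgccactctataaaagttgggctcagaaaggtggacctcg
Plaur, AP-1 site (chr1:89181263-89181362, plus strand): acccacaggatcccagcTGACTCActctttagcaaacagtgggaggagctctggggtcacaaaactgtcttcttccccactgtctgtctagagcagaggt
The site was found on either strand in 33 of 208 promoters of genes at least 2-fold higher at 3 h (15.9%), in 0 of 67 of genes at least 2-fold lower, in 5.53% of those of genes tested and in 7.33% of all promoters. Over all genes called, of any fold, it was in 55 of 706 promoters of those higher (7.79%) and 15 of 573 of those lower (2.62%). A match is a description of the letters, and binding was not measured.

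**Figure D4:**
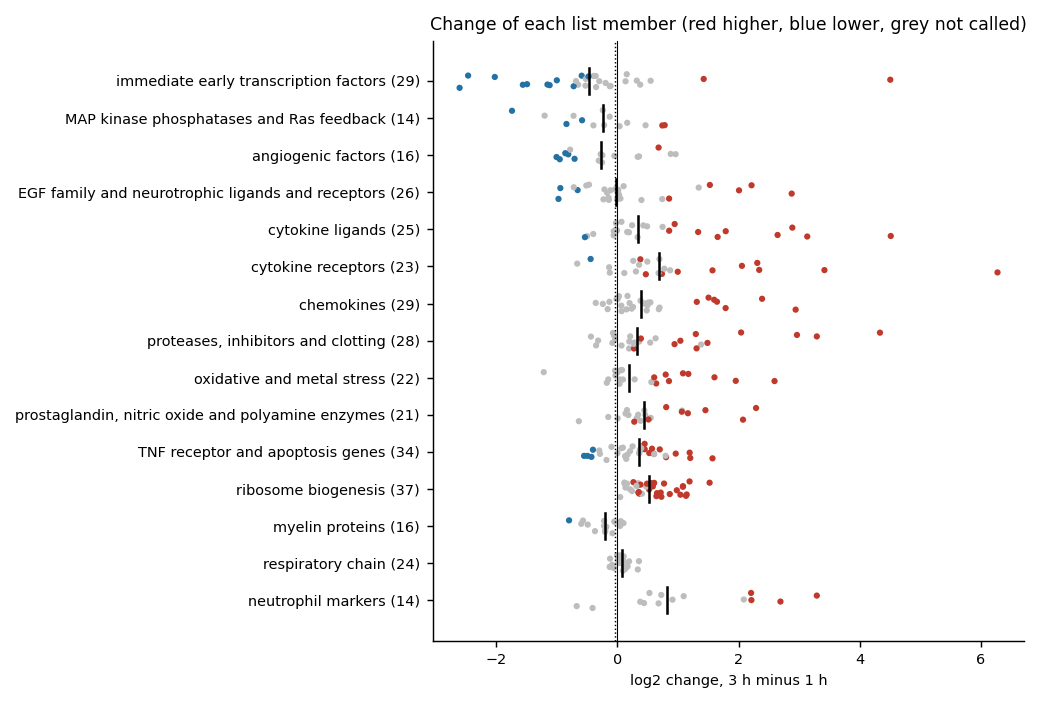
Change from 1 h to 3 h (horizontal, log2) of every measured member of 15 gene lists, with the number measured in brackets. Red points were called higher, blue points lower and grey points were not called; black bars are list medians and the dotted line is the median of all genes. The bars of cytokine receptors, ribosome biogenesis and neutrophil markers lie furthest to the right and that of immediate early transcription factors furthest to the left.

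Genes of oxidative and metal stress rose in 9 of 22 cases (40.9%, against 6.41% of all genes) and fell in none (median 0.19), with 3 called higher by the 6 arrays alone. Hmox1, heme oxygenase 1, lay at -1.33, -1.17 and -0.65 at 1 h, then 1.06, 1.76 and 1.81 at 3 h and rose by 2.59 (standard error 0.30, adjusted P 0.000172), 6.03-fold. Mt2A lay at 4.08, 4.16 and 4.30 at 1 h, then 5.38, 6.07 and 5.89 at 3 h, with little spread at 1 h, and rose by 1.60 (standard error 0.19, adjusted P 0.000199). Hamp, the iron hormone hepcidin, rose by 1.95 (standard error 0.29, adjusted P 0.000948), and Sod2, the superoxide dismutase of mitochondria, by 1.17 (standard error 0.15, adjusted P 0.000360). Enzymes of prostaglandin, nitric oxide and polyamine synthesis rose in 8 of 21 cases (38.1%) and fell in none (median 0.45), or in 5 without 3h_SN_3 and 2 with the 6 arrays alone. Ptges, which makes prostaglandin E2, rose from -1.79, -1.30 and -1.43 to 0.019, 0.76 and 0.91 (standard error 0.25, adjusted P 0.000243), whereas Ptgs2, the cyclooxygenase before it in the pathway, had a change of -0.63 and was not called. Gch1, which starts the synthesis of tetrahydrobiopterin, and Nos3, the endothelial nitric oxide synthase, rose by 1.45 and 1.16.

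In the lists of growth arrest, hypoxia and glycolysis, clock and heat shock genes 15.8%, 12.9%, 12.5% and 8.33% of the members were called, shares near the 11.7% of all genes. Cdkn1a, the cell cycle inhibitor p21, lay at 1.56, 1.45 and 1.25 at 1 h, then 3.30, 3.50 and 3.56 at 3 h and rose by 2.03 (standard error 0.17, adjusted P 2.90e-05), 4.10-fold. Gadd45a rose by 0.92 and Ccnd1, cyclin D1, fell by 0.49, the only 3 called of 19 growth arrest and p53 response genes. Fkbp5, a co-chaperone that glucocorticoids induce, lay at 2.44, 1.17 and 2.30 at 1 h, then 4.48, 4.35 and 4.33 at 3 h and rose by 2.41 (standard error 0.40, adjusted P 0.00186). Nr3c1, the glucocorticoid receptor, fell by 0.55 (standard error 0.12, adjusted P 0.00887), though not after median scaling (adjusted P 0.106). Of 18 glucocorticoid responsive genes 3 rose and 1 fell (22.2% called). In the list of hypoxia and glycolysis 4 of 31 rose and none fell, with a median of 0.011, and Hk2 and Pfkp, enzymes of early glycolysis, rose by 0.98 and 0.81. Hk2, whose change was 0.50 after normexp, lost its call without 1h_SN_1 or 1h_SN_2 or 3h_SN_2 or 3h_SN_3, and the count was 1 without 3h_SN_3 or with the 6 arrays alone and 2 without any single array of 1 h or without 3h_SN_2. Of 16 clock genes Bmal1 rose by 0.89 and Per3 fell by 0.67, and both calls were lost without 1h_SN_3 and without 3h_SN_2 or 3h_SN_3, that of Bmal1 also without 1h_SN_1 or 3h_SN_1. The clock genes that fell numbered 2 without 1h_SN_2 or 3h_SN_1. Of 24 heat shock and unfolded protein genes 2 rose, Bag3 by 0.43 and Trib3 by 1.29, the former with its call kept only without 3h_SN_1 among the 6 arrays left out. None of 24 interferon response genes was called, with a median of 0.39, though 2 were called higher without 3h_SN_1 and 2 after normexp.

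The list of TNF receptor and apoptosis genes followed by the study had 11 of 34 members higher (32.4%, against 6.41% of all genes) and 4 lower (11.8%, against 5.32%), with a median of 0.36. The study chose this subject on these arrays, so that the list is no independent evidence of a direction. The count of rises was 5 without 1h_SN_1, 6 without 3h_SN_2 and 4 without 3h_SN_3, and 1 with the 6 arrays alone. The count of falls was 2 without 1h_SN_1 or 1h_SN_2, 1 without 1h_SN_3 or 3h_SN_1, and 0 without 3h_SN_2, after median scaling or with the 6 arrays alone. Birc2 and Birc3 encode neighbouring inhibitors of apoptosis that act in TNF receptor signalling. Birc2 lay at -0.74, -0.65 and -0.78 at 1 h, then -0.034, 0.28 and -1.5e-05 at 3 h, with no overlap, and rose by 0.80 (standard error 0.091, adjusted P 0.000162), 1.75-fold. Its call was lost in 2 of 22 settings, and its highest adjusted P over the settings was 0.05. Birc3 lay at -1.26, -0.23 and -0.31 at 1 h, then -0.16, 0.54 and 0.71 at 3 h, where 1h_SN_1 was the lowest of its group, and rose by 0.96 (standard error 0.25, adjusted P 0.0255). That call was lost without 1h_SN_1 (change 0.63, adjusted P 0.0789), 3h_SN_2 (0.88, 0.0948) or 3h_SN_3 (0.79, 0.110). Tnfrsf1a, the type I TNF receptor, had signals of 3.06, 3.48 and 3.21 at 1 h, then 3.33, 3.81 and 3.69 at 3 h and a change of 0.36 that was not called (standard error 0.15, adjusted P 0.154). It was called higher in 2 of 22 settings, over which its change ranged from 0.26 to 0.50 and its adjusted P from 0.0327 to 0.424. Tnfrsf1b, the type II receptor, lay at -1.0, -0.53 and -0.56 at 1 h, then 0.37, 1.07 and 1.18 at 3 h and rose by 1.57 (standard error 0.22, adjusted P 0.000575).

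Other members of the list showed rises on both sides of the pathway. Bid, a promoter of apoptosis, rose by 1.19 (standard error 0.19, adjusted P 0.00130), and Bcl2a1, an inhibitor, by 1.20 (standard error 0.32, adjusted P 0.0301), a call lost without 1h_SN_1 or 1h_SN_3 or 3h_SN_2 or 3h_SN_3. The inhibitors Mcl1 and Bcl2l1 rose by 0.60 and 0.57 on their brightest probes, while the second probe of Mcl1 (0.22) and both dimmer probes of Bcl2l1 (0.25 and -0.076) were not called. Ripk1, a kinase of the TNF receptor complex, rose by 0.70. The calls of Mcl1 and Ripk1 were lost without 1h_SN_1 or 3h_SN_3, that of Ripk1 also without 3h_SN_2. Casp6, an effector caspase, lay at 1.43, 1.44 and 1.30 at 1 h, then 1.03, 0.67 and 1.19 at 3 h and fell by 0.43 (standard error 0.12, adjusted P 0.0367), a call lost with each array of 1 h left out and without 3h_SN_1 or 3h_SN_2, where its change without the latter was -0.28. Daxx, at 0.15, and Traf2, at -0.29, were not called.

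Genes for making ribosomes rose in most cases. Of 37 measured 25 rose (67.6%, against 6.41% of all genes), none fell and all 37 changes were above 0, with a median of 0.52. Gnl3, the nucleolar protein nucleostemin, lay at 3.06, 3.21 and 3.04 at 1 h, then 4.08, 4.33 and 4.15 at 3 h, and rose by 1.08 (standard error 0.094, adjusted P 2.93e-05), 2.12-fold. Nop58, a core protein of small nucleolar ribonucleoproteins, rose by 1.13 (standard error 0.15, adjusted P 0.000419) and Heatr1, a factor of the small subunit processome, by 1.14 (standard error 0.12, adjusted P 0.000124). Rrs1, Rrp9, Wdr43 and Ddx21, further factors of ribosomal RNA processing, rose by 1.19, 1.04, 1.08 and 0.98. The subunits Polr1b, Polr1c and Polr1d rose by 0.77, 0.72 and 0.36, while Polr1a, the largest subunit of RNA polymerase I, had a change of 0.34 that was not called. Utp15 was well above background on no array of 1 h and was at least 1.16-fold higher. The median of the 37 genes relative to their 1 h means was 0.36, 0.47 and 0.71 on the arrays of 3 h, highest on 3h_SN_3, and 0.80 to 0.89 at 6 h. With the 6 arrays alone in the fit, 5 of the 37 were called. Only 1 of the list, Wdr43, had been called higher at 0.5 h.

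The promoter of Gnl3 is shown for its E-box, CACGTG, the motif to which Myc binds with Max, in capitals.
Gnl3, E-box (chr16:6219783-6219842, minus strand): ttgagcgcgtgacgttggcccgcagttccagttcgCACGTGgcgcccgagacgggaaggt
This E-box was found in 9 of the 32 promoters available for the list (28.1%), against 8.88% of genes tested and 10.9% of all genes higher at 3 h. Myc itself, higher at 0.5 h by 1.28, changed by 0.16 between 1 h and 3 h and was not called.

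**Figure D5:**
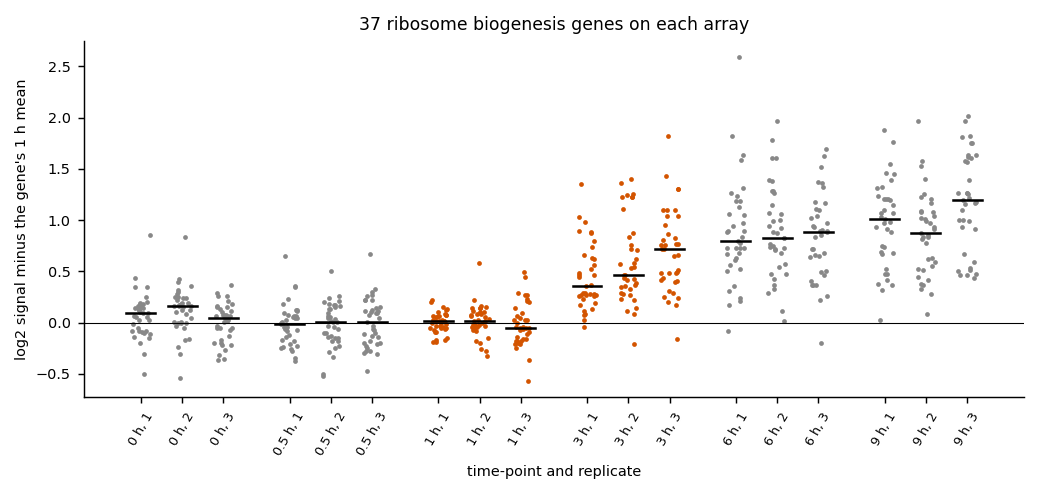
Log2 signal of 37 ribosome biogenesis genes minus each gene's mean at 1 h (vertical) on the 18 arrays (horizontal). Points are genes, orange at 1 h and 3 h, and black bars are medians. The medians lie between -0.052 and 0.019 at 1 h, between 0.36 and 0.71 at 3 h and between 0.88 and 1.19 at 9 h.

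Of the Schwann cell markers 1 of 14 rose, Gfap, and 2 fell, Mag and Erbb3 (21.4% called, against 11.7% of all genes), with a median of -0.23 and 12 changes below 0. The 2 falls were 3 without 1h_SN_2, 1 without 1h_SN_3 and 0 without 1h_SN_1, without 3h_SN_2 or 3h_SN_3 or with the 6 arrays alone. Of 16 myelin proteins 1, Mag, was called (6.25%), or 2 without 1h_SN_2. Mag, a glycoprotein of the innermost myelin membrane, lay at 3.15, 2.80 and 3.03 at 1 h, then 2.55, 1.94 and 2.10 at 3 h and fell by 0.80 (standard error 0.18, adjusted P 0.0147), a call lost without 1h_SN_1 or 3h_SN_2 or 3h_SN_3. The list median was -0.20. Of 22 genes of cholesterol and lipid synthesis Srebf1 fell by 0.55 and no other was called (4.55%). That call was lost without 1h_SN_2, when 3 others were called lower, or 3h_SN_3. Of 20 Schwann cell transcription factors 2 were called, a share near the 11.7% of all genes. Etv5 fell by 0.60 (standard error 0.11, adjusted P 0.00421) and Olig1 by 0.72. Olig1 lost its call when any array of 1 h or 3 h was left out and after normexp (change -0.27). Gfap, the intermediate filament that nonmyelinating Schwann cells make, rose from -3.16, -2.95 and -2.81 to -1.35, -0.65 and -0.72, a change of 2.06 (standard error 0.19, adjusted P 4.73e-05), 4.18-fold, with no overlap and a second probe at 1.24. Of 19 ion channel and nodal genes Cacna1c, an L-type calcium channel, rose by 0.95. None of 24 respiratory chain genes was called, or 1 without 1h_SN_2, and their changes lay between -0.12 and 0.36.

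Markers of other cells in the segment were set beside all genes, of which 11.7% were called and 5.32% were lower. Of 8 pericyte and smooth muscle markers Cspg4, Kcnj8 and Pdgfrb fell by 0.65, 0.47 and 0.32 (37.5%), or 1 of them after median scaling and none with the 6 arrays alone, and the summed signal went from 51.5 to 58.3 at 1 h to 41.6 to 44.2 at 3 h without overlap. Kcnj8 lost its call without 3h_SN_1, and Pdgfrb kept its call without that array alone. Of 11 endothelial markers Cdh5 rose by 1.38 and Flt1 by 0.68, while Emcn and Cldn5 fell by 0.46 and 0.45 (36.4% called). Each of the 4 lost its call without 3h_SN_2 and with the 6 arrays alone. The count of falls was 5 without 1h_SN_1, 3 without 3h_SN_3, 1 without 1h_SN_2 or 1h_SN_3 or 3h_SN_1, and 0 after median scaling. Of 12 fibroblast and perineurium markers Slc2a1, the glucose transporter, rose by 0.33 and none fell, a call lost without 1h_SN_3 or any array of 3 h. Their summed signal went the other way, from 1460, 1400 and 1430 at 1 h to 1380, 1370 and 1170 at 3 h, without overlap and with 3h_SN_3 the lowest. That sum follows the brightest genes, which at 3 h were Col3a1, Col1a1, Col1a2 and Dcn. The median change of the 12 markers was 0.049, with 6 changes above 0 and 6 below. None of 9 mast cell, 10 lymphocyte, 7 adipocyte and 5 erythroid markers was called, but 1 lymphocyte marker was without 3h_SN_1, and the summed signals of these lists overlapped between 1 h and 3 h, as did those of endothelial markers. Skeletal muscle markers had a median change of 0.77 with none of 14 called, and single arrays differed widely. Their summed signal was 7.94, 15.2 and 123 at 1 h and 27.7, 412 and 6.47 at 3 h.

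Further genes with large changes were Trem1, Slpi, Kcnh1, Pck1 and Tox3. Trem1, a receptor that amplifies inflammation on myeloid cells, lay at -4.80, -4.81 and -4.26 at 1 h, then -1.46, -1.56 and 0.13 at 3 h, spread at 3 h but with no overlap, and rose by 3.66 (standard error 0.44, adjusted P 0.000250), or by 2.42 after normexp. Slpi, an inhibitor of neutrophil elastase, rose by 2.76 (standard error 0.44, adjusted P 0.00156) and had a mean of 5.17 at 9 h. Sectm1b rose by 2.86, Epcam, an epithelial adhesion molecule, by 2.68 (standard error 0.23, adjusted P 2.93e-05; 1.61 after normexp), and Kcnh1, a voltage-gated potassium channel, by 2.76 (standard error 0.32, adjusted P 0.000205). The mean of Kcnh1 was -0.16 ± 0.29 at 3 h and -1.31 ± 0.48 at 6 h, a difference that was not tested. Among the falls, Pck1, an enzyme of gluconeogenesis and glyceroneogenesis, lay at -0.94, -0.092 and 0.70 at 1 h, then -2.77, -2.94 and -1.49 at 3 h and fell by 2.29 (standard error 0.61, adjusted P 0.0296), a call lost without 1h_SN_2 or 1h_SN_3 or 3h_SN_1 or 3h_SN_2. Tox3, a chromatin factor, lay at -2.57, -2.0 and -2.60 at 1 h, then -4.50, -4.73 and -4.04 at 3 h and fell by 2.04 (standard error 0.26, adjusted P 0.000345), with a change of -1.21 after normexp. LRRTM1, a leucine-rich repeat protein known from synapses, lay at -1.53, -1.29 and -1.29 at 1 h, then -2.81, -2.87 and -3.14 at 3 h and fell by 1.57 (standard error 0.20, adjusted P 0.000324). Dleu7, Scml4, Pkp1 and Exoc3l1 fell by 1.96, 1.78, 1.66 and 1.63, and after normexp their changes were -1.19, -0.83, -1.16 and -0.79. Pkp1 lost its call without 1h_SN_1, 1h_SN_2, 3h_SN_1 or 3h_SN_2, and Exoc3l1 without 3h_SN_2, and the change of Exoc3l1 was -1.08 without 1h_SN_3.

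The genes well above background on all arrays of 3 h and none of 1 h numbered 78, whereas 0 genes had the reverse pattern. Of the 78, 40 were called, where 11.7% of all genes were. As this pattern itself picks genes higher at 3 h, the count called is no separate evidence. 3h_SN_3 had the most spots well above background of the 6 arrays. Ucn2, the stress peptide urocortin 2, had the largest bound. It lay at -5.67, -5.25 and -5.45 at 1 h, then -1.14, -0.67 and -0.47 at 3 h, was well above background on no array of 1 h, and was at least 25.5-fold higher at 3 h (adjusted P 6.56e-08). Its mean went on to 0.33 ± 0.15 at 6 h and 1.21 ± 0.17 at 9 h. Vgf, a precursor of neuropeptides, was at least 10.005-fold higher, Nppb, the natriuretic peptide BNP, at least 7.86-fold and Reg3g, a secreted lectin, at least 6.76-fold. Stfa2l2, of the stefin family of cysteine protease inhibitors, was at least 9.94-fold higher and LOC681325 at least 7.05-fold. The adjusted P-values of these 5 lay between 1.23e-05 and 0.00138.

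In the step from 6 h to 9 h, which shares no array with that from 1 h to 3 h, 2 of 13505 genes were called (0.0148%), as against 1584. The 866 genes higher at 3 h had a median change of -0.044 in the late step and none was called, and the 718 lower genes a median of 0.068 with 1 called. The late step crosses scan days in 1 of its 6 arrays.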

How the data were processed

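Total RNA of the proximal nerve segment was labelled with Cy3 alone and hybridised to Agilent rat arrays, 3 for each of 6 time-points named in the sample labels. The authors deposited scanner files with background-subtracted intensity values per spot from Agilent Feature Extraction, and a table of quantile-normalized log2 values deposited by the authors served as an alternative. From the 43379 spots that are not controls, those marked as outliers were left out, log2 of the processed signal was taken, the array's 75th percentile was subtracted and spots of a probe were averaged. Tests covered the 32111 probes that some time-point showed well above background on each of its 3 arrays. The number of arrays limits the precision.

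limma 3.58.1 in R 4.3.3 was fitted to all 18 arrays with 6 groups, and the contrast of 3 h with 1 h was tested, as were 0.5 h with 0 h, 9 h with 6 h and the difference of the first of these from the contrast of interest. Gene lists used the probe with the highest mean for each of 13505 genes with a RefSeq symbol. The text names the 12 largest rises and 12 largest falls among called genes well above background on all 6 arrays with groups apart, the 6 largest bounds, up to 4 called members of each list (up to 8 of lists with over 12 called), the called immediate early factors and genes the study followed. Some items chosen by this rule are not reported here. Ccl2, Erbb2, F11r, Il1rap, Il6, Osmr, Timp1, Tnfsf9, 3 RNA polymerase I subunits and members given as not called were added after their values were seen. The comparison, the lists and the tests were chosen with earlier results of these data known. The fit was tested on simulated data. Alternatives were background correction, scaling, filters, blocks, weights, the arrays in the fit and leaving out each array. Promoters came from RefSeq (GRCr8), found for 11010 of the 13505 genes, and probe positions are those of the array design on rn4. Figures were drawn with matplotlib 3.10.9.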

Additional observations from a re-analysis of the deposited data

Results flagged for a closer look

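The step from 1 h to 3 h differed from the step from 0 h to 0.5 h, by limma's test of the difference between them, in 24 of the 29 immediate early transcription factors, where 9.75% of all genes differed. The steps share no array, and each lies within 1 scan day. A value below 0 means that the change after 1 h was lower than the first change. It need not mean a fall after 1 h, for only 11 of the 29 were called lower at 3 h. From 1 h to 3 h Nr4a3 changed by -0.11, Csrnp1 by -0.19 and Ier3 by 0.32, and none of these was called. The difference was -8.29 for Fos, -5.87 for Egr1, -4.81 for Egr4, -4.40 for Junb, -4.19 for Btg2 and -3.49 for Jun. It was -3.05 for Atf3, -2.89 for Ier2, -2.81 for Nr4a3 and -2.43 for Csrnp1. The Krüppel-like factors Klf2, Klf4 and Klf6 differed by -1.94, -1.90 and -1.19. The remaining Nr4a receptors, Nr4a1 and Nr4a2, differed by -1.92 and -1.41, and Fosb, Fosl2, Egr2 and Jund by -1.84, -1.69, -1.58 and -0.92. The smallest negative differences were those of Ier3 at -0.73 and Srf, the serum response factor itself, at -0.60. Klf10, Crem and Fosl1 differed in the opposite direction, by 0.80, 1.29 and 4.38.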

How the results depend on the processing

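Of 134 named genes that were called, 53 kept call and direction under each of the up to 22 settings in which they were recomputed, and 0 changed direction. With only the 6 arrays in the fit 73 of the 134 lost their call, and with a 2-fold minimum 49. The change of Daxx, which was not called, was 0.15 and ranged from -0.025 without replicate 3 of 3 h to 0.26 without replicate 1. Counts of genes called, higher, lower or with different steps are of gene names, of which 2995 of 27184 were called as reported, 1652 higher and 1346 lower, and counts of genes higher at 0.5 h are of the 13505 genes with a RefSeq symbol. With a shift to the median 570 genes were lower at 3 h, and 20 were higher at 0.5 h and then lower, against 41. Requiring a probe well above background on all 18 arrays left 21 genes higher at 0.5 h and again at 3 h, against 33. With only the 6 arrays in the fit 384 genes were called, 276 higher and 108 lower, a fit with fewer arrays to estimate the spread, and with the arrays of that scan day 858 were lower. The comparisons with 0 h and 0.5 h cannot be had from those 2 fits. Array weights gave 2086 lower genes, 82 and 52 genes higher at 0.5 h and then lower or higher, and 4895 with different steps, against 2919. A 2-fold minimum left 634 genes, 457 higher and 177 lower, 11 higher at 0.5 h and then lower, and 1396 with different steps. The cause of these shifts was not tested. With single arrays left out the number called ranged from 1648 to 3108, the higher from 931 to 1586 and the lower from 607 to 1523. Genes higher at 0.5 h and then lower ranged from 21 (without replicate 3 of 0.5 h) to 40, with 26 without replicate 1 of 0.5 h or replicate 3 of 3 h. Those higher in both steps ranged from 16 (without replicate 1 of 0.5 h) to 44, with 19 when replicate 3 of 0.5 h was left out and 18 when that was replicate 2 of 0 h. Those with different steps ranged from 1842 (without replicate 1 of 0.5 h) to 2799, with 1850 without replicate 3 of 3 h. The replicate numbers did not pair the samples, with correlations of 0.21, -0.017 and -0.058 between same-numbered deviations, and the fit with the replicate block called 3003 genes.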
